A study of Rattus norvegicus with 6 samples.

Results

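DNA repair genes were followed by pathway after serum was withdrawn from primary cultures of rat nucleus pulposus, the soft inner tissue of the intervertebral disc. The set was a list of 53 symbols covering homologous recombination, the Fanconi anaemia pathway, end joining, mismatch repair, base excision repair, nucleotide excision repair and the damage checkpoint kinases. Of these, 52 matched a row among the 17093 genes in each deposited table by their symbol, and Fancm was not analysed here. The cells came from male animals at passages 3 to 6, per the labels. In 3 libraries the cells had been kept without fetal bovine serum for 48 h (serum-starved), and in the other 3 they had been kept in medium with 10% serum (control), also labelled 48 h. Nothing in the labels ties the libraries to different animals or dishes, so a p-value here reflects the spread among these 6 libraries and no more, and that spread may be technical.

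Cells mend different lesions by different routes. Homologous recombination copies an intact sister chromatid and is therefore tied to S and G2 phase, and the Fanconi anaemia pathway clears interstrand crosslinks met by replication forks. End joining rejoins broken ends without a template and can act in cells that do not divide. Mismatch repair corrects replication errors, base excision repair removes damaged bases, and nucleotide excision repair cuts out bulky lesions such as those made by ultraviolet light. Nucleus pulposus cells divide rarely in the disc, whereas in culture with serum they proliferate.

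RNA was depleted of ribosomal RNA and sequenced from random primers, per the labels' protocols. The authors' values carry no unit in the file headers and are treated here as FPKM, which is scaled by transcript length and library total, so levels can be set side by side between genes. The values of a library summed to 447788 to 473452 FPKM in serum-starved and 522165 to 530095 FPKM in control libraries, and the depth in reads is unknown. Among markers of the labelled cell type, Acan (3.27, 2.67 and 3.22 FPKM in serum-starved, 82.61, 102.75 and 47.2 FPKM in control libraries), Sox9 (4.03-fold lower) and Foxf1 (1.53-fold lower) fell and Pax1 (1.86-fold higher) rose, whereas Col2a1 was at most 0.06 FPKM and Krt18 was listed at 0 in every library. Of 20 markers of the nucleus pulposus 14 had a row and 11 were tested, of which 8 were lower and 2 higher (Pax1 and Car3). Car3 rose 25.4-fold, from a mean of 1.03 FPKM in control to 26.15 FPKM in serum-starved cells. The summed level of the list was 318.8 to 333.7 FPKM in serum-starved and 621.7 to 682.9 FPKM in control libraries. That sum mostly followed Cd44 (mean 94.36 FPKM in serum-starved and 244.6 FPKM in control cells), Slc2a1 (30.66 and 141.9 FPKM) and Hif1a (96.64 and 121.8 FPKM). Of 8 endothelial markers 4 had a row, and their summed level was 0.62 to 0.81 FPKM in serum-starved and 0.58 to 1.19 FPKM in control libraries. Of 9 leukocyte markers 5 had a row and 2 were tested, of which Cd14 was 2.91-fold lower and Cd68 1.73-fold higher. The summed level of the 5, mostly Cd14, was 10.72 to 14.31 FPKM in serum-starved and 23.46 to 29.94 FPKM in control libraries. Adgre1 was at most 0.02 FPKM. Of 8 tested markers of annulus cells or fibroblasts 5 were higher and 1 was lower, with Dcn 9.00-fold higher and Thy1 3.10-fold lower, and their summed level was 3511 to 3667 FPKM in serum-starved and 2790 to 3171 FPKM in control libraries. Of 5 tested mural cell markers 2 were lower (Des 9.73-fold and Cspg4 2.88-fold) and 1 was higher, and the summed level of that list was 56.73 to 75.81 FPKM in serum-starved and 218.8 to 269.4 FPKM in control libraries. For these marker counts, 29.4% of all tested genes were lower and 31.7% higher. The part of other cell types in the results was not tested.

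Homologous recombination and Fanconi anaemia genes held the 5 largest falls among the tested members on the log2(FPKM + 1) scale (Bard1, Fanci, Fancd2, Rad51ap1 and Fanca). Of 6 end joining genes 4 did not pass, and nucleotide excision repair genes divided, with 4 higher and 2 lower. Of the 49 members tested (a value of at least 1 FPKM in at least 3 libraries), 28 were lower, 6 were higher and 15 did not pass, by limma on log2(FPKM + 1) with a threshold of 0.05 on p after Benjamini-Hochberg adjustment over 11493 genes, of which 61.1% were called in either direction. Lower calls thus made up 57.1% of the tested members, beside 29.4% of all tested genes, and higher calls 12.2%, beside 31.7%. Falls of at least 2-fold on the log2(FPKM + 1) scale were called for 13 of the 49 (26.5%, beside 7.18% of all tested genes). Every serum-starved library was below every control library for 30 members (61.2%, beside 32.5% of all tested genes) and above for 11 (22.4%, beside 35.7%). These shares leave out the untested members, and 8 tested members (Brca1, Palb2, Bard1, Rad51b, Rad54l, Blm, Fanca and Fancb) were under 1 FPKM in every serum-starved library and were tested only through their control level. With no filter on low values, 30 of 52 members were lower, beside 21.5% of 16684 genes, and 6 were higher, beside 24.0%. The calls for 7 small falls, of 1.43-fold or less, depended on the library scaling: with every library scaled to an equal total, which moved the median log2 difference of all tested genes to 0.21 from 0.03, these 7 did not pass and 7 more members were called higher. In bulk samples, fewer cells of a type and less RNA per cell cannot be told apart.

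**Figure D1:**
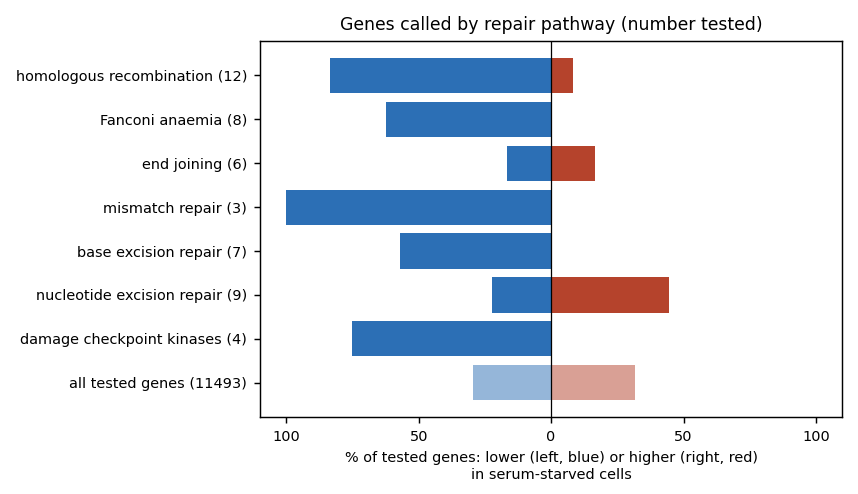
Percentage of the tested genes of each repair pathway called lower (blue, left) or higher (red, right) in serum-starved than in control cells, with the number tested in brackets and all 11493 tested genes in pale colours at the bottom. All 3 tested mismatch repair genes and 10 of 12 homologous recombination genes were lower, while 4 of 9 nucleotide excision repair genes were higher.

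The promoter sequences of 5 members with a match are shown, 3 that fell (Bard1, Fancd2 and Chek1) and 2 that rose (Rad51d and Xpc). Each runs 5′ to 3′ from 250 bases before to 50 bases after the gene's start on the strand of the gene, from RefSeq on the GRCr8 assembly. Capitals mark the letters of the E2F site searched (TTTCCCGC, TTTCGCGC, TTTGCCGC or TTTGGCGC) and of the CHR element (TTTGAA or TTCGAA), elements known from promoters of cell cycle genes, on either strand. None of these E2F words overlaps a CHR word in the windows printed. The windows printed are not typical of the members. Of 12 promoters of members lower by at least 2-fold, only the 3 printed held an E2F word. Of 4 promoters of members that rose, 1 held an E2F word (Rad51d) and 1 a CHR word (Xpc).
Bard1, chr9:80143706-80144005, minus strand: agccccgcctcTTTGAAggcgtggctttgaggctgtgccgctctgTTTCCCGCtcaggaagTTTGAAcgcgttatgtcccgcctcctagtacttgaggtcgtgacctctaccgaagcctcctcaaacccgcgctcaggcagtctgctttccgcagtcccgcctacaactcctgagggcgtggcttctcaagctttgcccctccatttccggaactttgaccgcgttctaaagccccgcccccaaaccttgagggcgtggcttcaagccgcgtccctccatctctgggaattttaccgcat
Fancd2, chr4:148234458-148234757, plus strand: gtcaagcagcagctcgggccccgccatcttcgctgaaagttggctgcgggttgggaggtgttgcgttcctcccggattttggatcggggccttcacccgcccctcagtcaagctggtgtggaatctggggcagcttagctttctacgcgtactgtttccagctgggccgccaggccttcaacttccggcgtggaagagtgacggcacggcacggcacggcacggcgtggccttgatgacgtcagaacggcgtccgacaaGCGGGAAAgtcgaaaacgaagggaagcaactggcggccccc
Chek1, chr8:44629794-44630093, minus strand: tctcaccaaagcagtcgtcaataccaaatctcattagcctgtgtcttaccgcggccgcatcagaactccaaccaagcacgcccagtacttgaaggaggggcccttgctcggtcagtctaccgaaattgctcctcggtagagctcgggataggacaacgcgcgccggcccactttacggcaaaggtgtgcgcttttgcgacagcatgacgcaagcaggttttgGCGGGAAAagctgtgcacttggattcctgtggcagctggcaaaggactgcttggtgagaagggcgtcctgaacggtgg
Rad51d, chr10:68321853-68322152, minus strand: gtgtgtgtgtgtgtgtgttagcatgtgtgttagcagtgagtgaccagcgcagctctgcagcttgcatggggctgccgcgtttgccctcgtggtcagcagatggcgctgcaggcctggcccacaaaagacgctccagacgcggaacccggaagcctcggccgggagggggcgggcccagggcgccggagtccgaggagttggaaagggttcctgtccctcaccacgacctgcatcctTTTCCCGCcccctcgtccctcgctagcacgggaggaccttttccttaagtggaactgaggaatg
Xpc, chr4:125578035-125578334, minus strand: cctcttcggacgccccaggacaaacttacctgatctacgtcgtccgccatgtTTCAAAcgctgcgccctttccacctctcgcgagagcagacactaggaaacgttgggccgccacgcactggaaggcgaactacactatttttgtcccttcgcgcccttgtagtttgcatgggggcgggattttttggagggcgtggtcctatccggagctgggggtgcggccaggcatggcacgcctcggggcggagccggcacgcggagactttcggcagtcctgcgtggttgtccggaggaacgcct

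The E2F word began at base 260 of the 300-base window in Fancd2, at base 223 in Chek1 and at base 46 in Bard1, and at base 237 in Rad51d, which rose. Of the 43 members with a promoter in the table, 9 (20.9%) held an E2F word, beside 4.49% of 9167 tested genes and 2.14% of all 33469 promoter windows. Among the members lower by at least 2-fold, 3 of 12 with a promoter held one, beside 8.41% of all tested genes lower by that much. Among the remaining members 6 of 31 did. These were Msh6 and Ung, which fell by less, Rad51d, which rose, and Fancc, Fancl and Atm, which did not pass. A CHR word stood in 4 of those 12 and in 5 of those 31, beside 14.3% of the tested genes and 19.7% of all windows. Among all tested genes lower by at least 2-fold the CHR share was 26.5%, so with so few members 4 of 12 lies near it. The CCAAT box (CCAAT, either strand) was found in 6 of the 12 and in 13 of the 31, beside 39.6% of the tested genes and 37.5% of all windows. Its share was 46.6% among all tested genes lower by at least 2-fold. These are matches of letters in 1 window per start and were not tested.

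**Figure D2:**
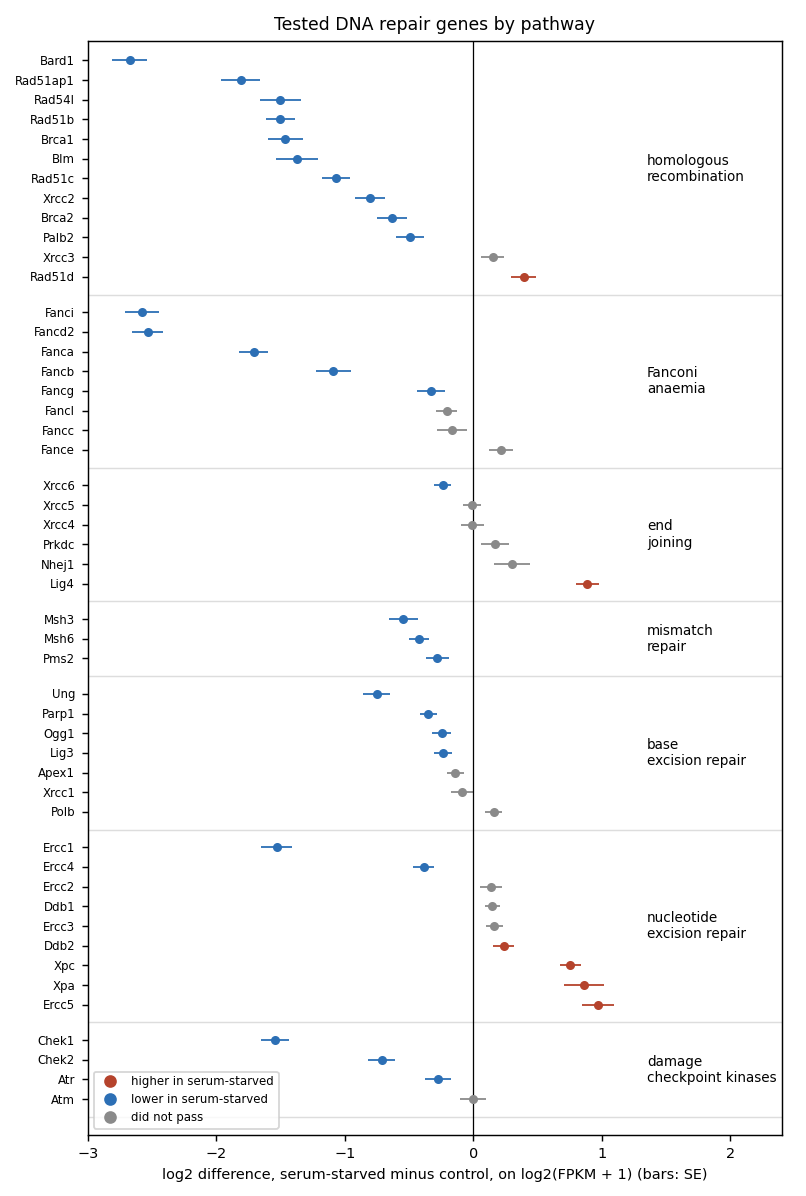
Log2 difference between serum-starved and control cells (points, on the log2(FPKM + 1) scale, bars are the SE) for the 49 tested repair genes, ordered within each pathway. Bard1, Fanci and Fancd2 lie below -2.5, and Ercc5 and Lig4 lie at the high end with 0.97 and 0.89.

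Of 12 tested homologous recombination genes, 10 were lower in serum-starved cells, 1 was higher and 1 missed the threshold. The lower share was 83.3%, beside 29.4% of all tested genes. The median log2 difference was -1.22, beside 0.03 over all tested genes. Among those lower, Brca1, Palb2, Bard1, Rad51b, Rad54l and Blm were tested only through their control level, so for these the filter favoured a fall. At a filter of 5 FPKM, 2 of 4 tested were lower, and with no filter 12 of 14 were. Bard1 (gene ID 64557), the RING partner that Brca1 needs to act as a ubiquitin ligase, stood at 0.27, 0.19 and 0.11 FPKM in serum-starved libraries 1, 2 and 3, against 8.2, 5.78 and 5.99 FPKM in control libraries 1, 2 and 3. The groups lay far apart, and the log2 difference was -2.67 ± 0.13 (SE, limma, Benjamini-Hochberg adjusted p = 1.45e-06). The reference holds a pseudogene of Bard1, so part of its signal could be shared and its level is uncertain. Brca1 (gene ID 497672), which directs broken ends to recombination, was less deeply reduced, with 0.78, 0.66 and 0.94 FPKM in serum-starved and 4.84, 3.21 and 3.86 FPKM in control libraries, 5.00-fold lower. The Brca1 to Bard1 ratio was accordingly 2.89, 3.47 and 8.55 in the serum-starved and 0.590, 0.555 and 0.644 in the control libraries.

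The strand-exchange helpers fell with them. Rad51ap1, which promotes strand exchange, had 1.26, 0.94 and 1.18 FPKM in serum-starved and 8.41, 5.32 and 5.95 FPKM in control libraries, 5.82-fold lower. Rad54l, a motor protein that acts on the donor duplex, had 0.39, 0.48 and 0.67 FPKM in serum-starved and 3.92, 2.36 and 3.72 FPKM in control libraries, 6.49-fold lower. In each of these genes every serum-starved library was below every control library, and control library 1 was the highest. The helicase gene Blm, mutated in Bloom syndrome, fell 4.68-fold, with a log2 difference of -1.38 ± 0.16 (SE, limma, Benjamini-Hochberg adjusted p = 0.000162). Brca2, a mediator of recombination, and Palb2, which links it to Brca1, fell 2.07-fold and 1.93-fold.

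Rad51b, Rad51c, Rad51d, Xrcc2 and Xrcc3, related proteins that form complexes in recombination, did not move as a unit. Rad51b had 0.4, 0.56 and 0.4 FPKM in serum-starved and 3.46, 2.7 and 3.2 FPKM in control libraries, 6.88-fold lower. Rad51c and Xrcc2 fell 2.67-fold and 2.31-fold. Rad51d (gene ID 303375) had 5.52, 5.15 and 5.54 FPKM in serum-starved and 4.23, 4.1 and 3.35 FPKM in control libraries, with no overlap, and was 1.39-fold higher (log2 difference 0.39 ± 0.10, SE, limma, Benjamini-Hochberg adjusted p = 0.00733). Xrcc3 had 5.62, 6.75 and 6.56 FPKM in serum-starved and 5.6, 5.72 and 5.39 FPKM in control libraries, and did not pass (adjusted p = 0.163), although with every library scaled to an equal total it was called higher (adjusted p = 0.019). Rad51d and Xrcc3 together made up 53.2% to 59.2% of the summed FPKM of the 14 recombination genes in serum-starved libraries, against 16.5% to 22.0% in control libraries. On the reference assembly 17 of the 52 members overlap another measured gene, Xrcc3 among them (with Klc1), and their shared reads cannot be told apart without a stated use of strand.

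Exo1, the exonuclease that resects broken ends, and Rad54b, a relative of Rad54l, were not tested because too few libraries reached 1 FPKM. Exo1 had 0.03, 0.03 and 0.08 FPKM in serum-starved and 1.48, 0.84 and 1.27 FPKM in control libraries, and Rad54b had 0.07, 0.23 and 0.11 FPKM in serum-starved and 1.21, 0.84 and 1.07 FPKM in control libraries. In the fit with no filter both were lower, with a limma Benjamini-Hochberg adjusted p = 0.00042 for Exo1 and 0.000406 for Rad54b. Of 18 further recombination genes tested, 9 fell, 2 rose and 7 did not pass. Rmi2, a partner of Blm, was 45.4-fold lower and Brip1, the helicase bound by Brca1, 10.5-fold lower. Both folds are inexact, since serum-starved libraries had 0.06, 0.17 and 0.06 FPKM of Rmi2 and 0.36, 0.27 and 0.36 FPKM of Brip1. The end-sensing complex moved little: Rad50 (adjusted p = 0.0876) and Nbn (adjusted p = 0.501) did not pass, and Mre11, listed as Mre11a, fell 1.27-fold.

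**Figure D3:**
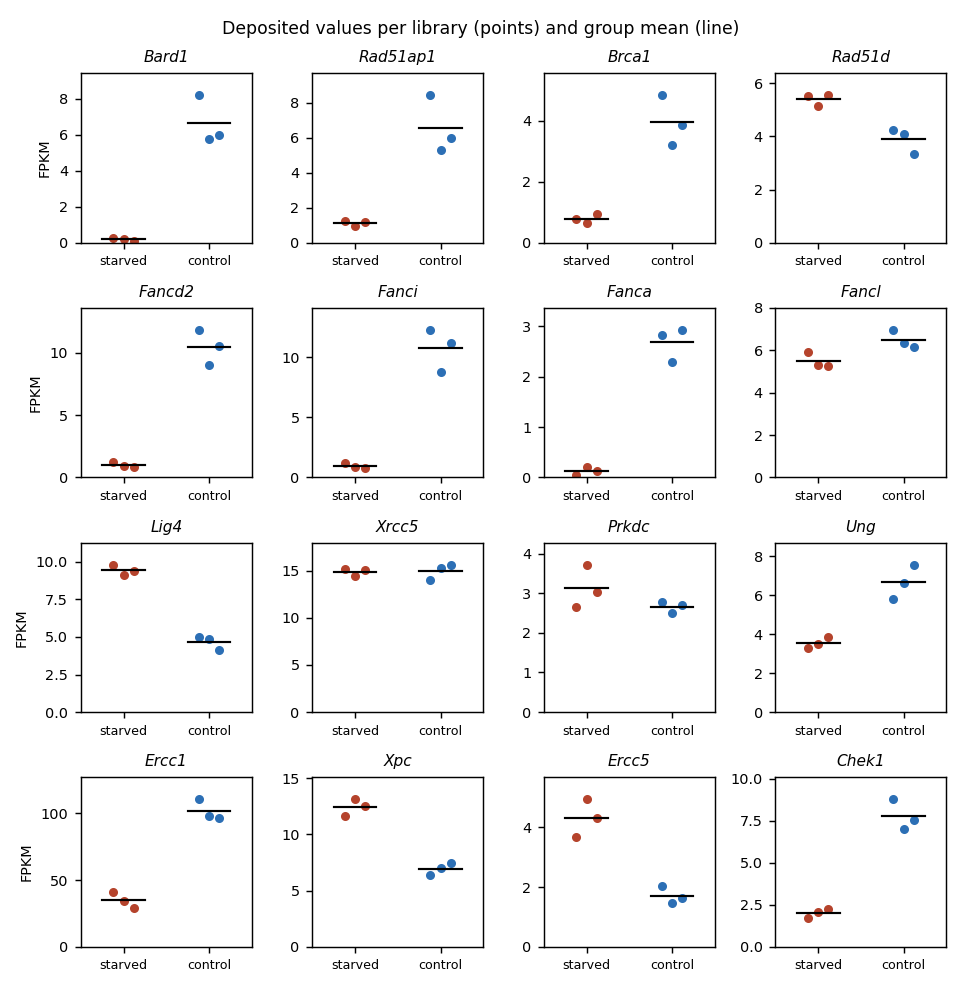
Deposited FPKM in each library (points) with the group mean (line) for 16 repair genes, serum-starved cells on the left and control cells on the right of each panel, each axis starting at 0. The groups are far apart for Bard1, Fancd2, Fanci, Fanca, Ercc1 and Chek1, and overlap for Xrcc5 and Prkdc.

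In the Fanconi anaemia pathway 5 of 8 tested genes fell (62.5%, beside 29.4% of all tested genes), 0 rose and 3 did not pass. Fanca and Fancb, both lower, were tested only through their control level. The largest falls on the log2(FPKM + 1) scale were in the clamp that the pathway switches on by ubiquitin. Fanca, a low gene, fell by a larger ratio of mean FPKM. At an unadjusted p under 0.05 in limma, 6 were lower and 1 (Fance) was higher. Fancd2 (gene ID 312641) had 1.23, 0.88 and 0.82 FPKM in serum-starved and 11.82, 9.04 and 10.51 FPKM in control libraries. Fanci (gene ID 100360594), its clamp partner, had 1.21, 0.85 and 0.82 FPKM in serum-starved and 12.26, 8.79 and 11.16 FPKM in control libraries. The falls were 10.7-fold and 11.2-fold, and the ratio of Fancd2 to Fanci stayed at 1.00 to 1.04 in serum-starved and 0.942 to 1.03 in control libraries.

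The core complex, the ubiquitin ligase that acts on this clamp, was uneven. Fanca, one of its large subunits, had 0.05, 0.21 and 0.12 FPKM in serum-starved and 2.83, 2.3 and 2.93 FPKM in control libraries, 21.2-fold lower. Fancb, which sits beside the catalytic subunit, had 0.24, 0.19 and 0.18 FPKM in serum-starved and 2.08, 1.48 and 1.19 FPKM in control libraries, 7.79-fold lower. The catalytic subunit Fancl itself had 5.93, 5.32 and 5.24 FPKM in serum-starved and 6.96, 6.37 and 6.18 FPKM in control libraries. These groups did not overlap, but the difference of -0.21 did not pass (adjusted p = 0.0591), and it passed in 4 of 15 alternatives, median-ratio scaling among them (adjusted p = 0.031). Fancl overlaps Vrk2 on the reference assembly, which fell by 0.52 on the log2 scale. Fance, which bridges the complex to Fancd2, had 6.76, 5.87 and 5.67 FPKM in serum-starved and 4.72, 5.45 and 5.15 FPKM in control libraries and did not pass either (adjusted p = 0.0707), though it was called higher under scaling to an equal total (adjusted p = 0.0051). Fancc (1.06 ± 0.165 FPKM in serum-starved and 1.31 ± 0.212 FPKM in control cells, SD, n = 3 each) did not pass, and Fancg fell 1.43-fold, a call lost in 6 of 14 alternatives.

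Among 9 further Fanconi genes, 3 fell (33.3%, beside 29.4% of all tested genes), 1 rose (11.1%, beside 31.7%) and 5 did not pass. Ube2t, the conjugating enzyme that works with Fancl, had 0.16, 0.15 and 0.07 FPKM in serum-starved and 16.84, 11.86 and 11.18 FPKM in control libraries, 105-fold lower. Usp1, which removes ubiquitin from the clamp, fell 2.55-fold. Thus Ube2t had a log2 difference of -3.64 and Usp1 of -1.25, whereas Fancl had -0.21.

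Of the 6 tested end joining genes 4 did not pass, 1 fell and 1 rose. These calls were 16.7% each, beside 29.4% lower and 31.7% higher among all tested genes. The pathway's median log2 difference was 0.08, beside 0.03 over all tested genes. Lig4 (gene ID 290907), the ligase that seals the joined ends, had 9.81, 9.12 and 9.39 FPKM in serum-starved and 4.98, 4.87 and 4.1 FPKM in control libraries. It was 2.03-fold higher with no overlap (log2 difference 0.89 ± 0.09, SE, limma, Benjamini-Hochberg adjusted p = 5.79e-05). Its scaffold Xrcc4 had 4.43, 4.61 and 4.5 FPKM in serum-starved and 4.99, 4.57 and 4.1 FPKM in control libraries and did not pass, so that the Lig4 to Xrcc4 ratio was 1.98 to 2.21 in serum-starved and 0.998 to 1.07 in control libraries.

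The Ku heterodimer, which caps broken ends, was the most abundant part of this pathway. Xrcc5, its larger subunit, had 15.19, 14.4 and 15.09 FPKM in serum-starved and 14.01, 15.31 and 15.65 FPKM in control libraries, and the groups overlapped. Xrcc6, the smaller subunit, had 11.6, 11.36 and 11.32 FPKM in serum-starved and 13.11, 13.95 and 13.9 FPKM in control libraries, 1.19-fold lower (adjusted p = 0.013), but not with libraries scaled to an equal total (adjusted p = 0.459) or without control library 2 (adjusted p = 0.053). Prkdc, the kinase that Ku recruits, had 2.65, 3.72 and 3.02 FPKM in serum-starved and 2.78, 2.49 and 2.69 FPKM in control libraries and did not pass. Nhej1, which aligns the ends, had 1.13, 1.37 and 1.68 FPKM in serum-starved and 0.81, 0.75 and 1.27 FPKM in control libraries. It did not pass (adjusted p = 0.0886), and was called higher without control library 3 (adjusted p = 0.028), with library weights and under scaling to an equal total. Of 8 further end joining genes tested, 3 rose (37.5%, beside 31.7% of all tested genes), 0 fell (beside 29.4%) and 5 did not pass. With so few genes the share that rose lies near that of all tested genes. At an unadjusted p under 0.05 in limma, 0 of them fell. Aplf, a scaffold that binds Ku, rose 2.36-fold, with 6.47, 8.67 and 8.88 FPKM in serum-starved and 3.07, 3.37 and 3.74 FPKM in control libraries. Shld2, of the shieldin complex that limits resection, rose by 0.32 on the log2 scale, and Tp53bp1, named after its values were seen, rose by 0.23. Polq, the polymerase of the alternative pathway, was not tested, at 0.7, 0.65 and 0.55 FPKM in serum-starved and 1.18, 0.91 and 0.85 FPKM in control libraries. In the fit with no filter Polq was lower (log2 difference -0.28, limma, Benjamini-Hochberg adjusted p = 0.0285). Shld1, also untested and named after its values were seen, was higher in that fit (0.45, limma, Benjamini-Hochberg adjusted p = 0.00548).

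All 3 tested mismatch repair genes fell, each by less than 1.8-fold, whereas 29.4% of all tested genes were lower. Msh6, which recognises base mismatches, had 6.53, 6.75 and 6.17 FPKM in serum-starved and 9.59, 8.74 and 8.72 FPKM in control libraries, 1.39-fold lower (log2 difference -0.42 ± 0.08, SE, limma, Benjamini-Hochberg adjusted p = 0.00168). It overlaps Fbxo11, which rose by 0.50 on the log2 scale. Msh3, which recognises larger loops, had 1.64, 1.49 and 2 FPKM in serum-starved and 2.9, 2.65 and 3.29 FPKM in control libraries, 1.72-fold lower. Pms2, the endonuclease subunit, had 4.93, 5.49 and 5.06 FPKM in serum-starved and 6.52, 5.9 and 7.04 FPKM in control libraries. The groups did not overlap (1.26-fold lower, adjusted p = 0.023), but the call was lost with libraries scaled to an equal total (adjusted p = 0.319) and in 4 of the 6 fits that left out a library.

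Of the 7 base excision repair genes tested, 4 were lower (57.1%, beside 29.4% of all tested genes), 0 were higher (beside 31.7%) and 3 did not pass. Their median log2 difference was -0.24. At an unadjusted p under 0.05 in limma, 1 rose (Polb). Under scaling to an equal total 1 of the 7 fell, Ung, and 1 rose, again Polb. Ung, the glycosylase that removes uracil, had 3.31, 3.49 and 3.85 FPKM in serum-starved and 5.83, 6.65 and 7.58 FPKM in control libraries, 1.88-fold lower (log2 difference -0.75 ± 0.10, SE, limma, Benjamini-Hochberg adjusted p = 0.000382). The reference names pseudogenes of Ung and of Apex1, so both levels are uncertain. Parp1, the sensor of strand breaks, had 17.85, 17.91 and 18.69 FPKM in serum-starved and 24.62, 22.27 and 23.29 FPKM in control libraries, 1.29-fold lower, a call lost under scaling to an equal total (adjusted p = 0.069).

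Ogg1, the glycosylase for oxidised guanine, had 4.35, 4.59 and 4.41 FPKM in serum-starved and 5.34, 5.48 and 5.58 FPKM in control libraries. Lig3, a ligase that seals the repaired strand, had 13.05, 12.41 and 11.65 FPKM in serum-starved and 14.52, 14.8 and 14.91 FPKM in control libraries. Both were about 1.2-fold lower with no overlap, and both calls were lost when libraries were scaled to an equal total, without serum-starved library 3 and without control library 2, and that of Ogg1 also without serum-starved library 1. The abundant steps in between differed least: Apex1, which cuts at the abasic site, had 28.71, 28.53 and 25.79 FPKM in serum-starved and 31.57, 30.3 and 29.8 FPKM in control libraries (adjusted p = 0.104).

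Xrcc1, the scaffold that holds Lig3, had 20.53, 19.36 and 19.99 FPKM in serum-starved and 20.23, 19.5 and 24.21 FPKM in control libraries, and the groups overlapped. Polb, the gap-filling polymerase, averaged 19.1 ± 0.601 FPKM in serum-starved and 17.0 ± 0.645 FPKM in control cells (SD, n = 3 each) and did not pass (limma, adjusted p = 0.0636). Neil3, a glycosylase for oxidised bases and crosslinks met in replication, stood apart from its pathway. It was listed at 0.04, 0 and 0 FPKM in serum-starved libraries, against 1.72, 0.92 and 1.29 FPKM in control libraries, and was not tested (with no filter, limma, Benjamini-Hochberg adjusted p = 0.000431).

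Of 18 further base excision genes tested, 7 fell (38.9%, beside 29.4% of all tested genes), 4 rose (22.2%, beside 31.7%) and 7 did not pass. The largest falls were in Fen1 (3.63-fold) and Lig1 (2.60-fold), a flap nuclease and a ligase that also finish Okazaki fragments in replication, whereas Parp2, a relative of Parp1, did not pass (adjusted p = 0.656).

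Of 9 tested nucleotide excision repair genes, 4 were higher in serum-starved cells (44.4%, beside 31.7% of all tested genes), 2 were lower (22.2%, beside 29.4%) and 3 did not pass. With so few genes these shares lie near those of all tested genes. Xpc (gene ID 312560), which finds the lesion, had 11.67, 13.13 and 12.5 FPKM in serum-starved and 6.41, 7.05 and 7.44 FPKM in control libraries, 1.78-fold higher (log2 difference 0.75 ± 0.08, SE, limma, Benjamini-Hochberg adjusted p = 0.0001). Xpa, which checks the opened lesion, had 5.7, 5.06 and 4.8 FPKM in serum-starved and 1.64, 2.86 and 2.87 FPKM in control libraries, 2.11-fold higher. Ercc5, the nuclease XPG that cuts on the 3′ side, had 3.68, 4.94 and 4.32 FPKM in serum-starved and 2.04, 1.45 and 1.64 FPKM in control libraries, 2.52-fold higher. None of these groups overlapped, and the 3 calls held in every alternative that tested them. Ddb2, the damage sensor for ultraviolet lesions, was 1.25-fold higher (adjusted p = 0.0324). It had 3.17, 3.17 and 3.11 FPKM in serum-starved and 2.58, 2.45 and 2.54 FPKM in control libraries. The call was lost in 9 of 14 alternatives. These were the replicate block (adjusted p = 0.065), median-ratio scaling (adjusted p = 0.055), quantile normalization (adjusted p = 0.075) and every fit that left out a library. On the reference assembly Ddb2 overlaps Acp2, which also rose, and without a stated use of strand their reads cannot be told apart where they overlap.

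The nuclease on the 5′ side of the lesion moved the other way. Ercc1 (gene ID 292673), its DNA-binding subunit, had 41.36, 34.04 and 29.03 FPKM in serum-starved and 110.54, 97.82 and 96.15 FPKM in control libraries. It was 2.92-fold lower with no overlap (log2 difference -1.53 ± 0.12, SE, limma, Benjamini-Hochberg adjusted p = 1.75e-05). Polr1g, a gene that overlaps Ercc1 on the reference assembly, had 12.2, 8.13 and 9.27 FPKM in serum-starved and 13.51, 14.49 and 12.07 FPKM in control libraries, so the level of Ercc1 is uncertain to the extent that they share reads. Ercc4, the catalytic subunit XPF, had 8.4, 7.6 and 8.79 FPKM in serum-starved and 10.71, 10.7 and 11.83 FPKM in control libraries, 1.34-fold lower, and is uncertain because a near copy (Ercc4l1) is also in the tables, itself 1.55-fold lower. The ratio of Ercc1 to Ercc4 was 3.30 to 4.92 in serum-starved and 8.13 to 10.3 in control libraries.

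Ddb1, an adaptor of the CUL4 ubiquitin ligase with roles beyond repair, was the most abundant member, at 175.13, 177.57 and 186.93 FPKM in serum-starved and 159.42, 159.04 and 168 FPKM in control libraries. Its groups did not overlap, but it did not pass (adjusted p = 0.0601), and it was called higher under scaling to an equal total, quantile normalization, library weights and without control library 3. The TFIIH helicase genes Ercc3 (18.43, 18.12 and 18.13 FPKM in serum-starved, 15.85, 15.59 and 17.17 FPKM in control libraries) and Ercc2 did not pass, and both were called higher under scaling to an equal total. Of 20 further genes of the pathway, 6 fell (30.0%, beside 29.4% of all tested genes), 5 rose (25%, beside 31.7%) and 9 did not pass. The largest falls were in Rpa2 (2.45-fold) and Rpa1 (1.76-fold), subunits of the single-strand binding protein that replication shares. The largest rises, named after their values were seen, were in Uvssa (log2 difference 0.71) and Ercc6 (0.58), both of the branch that acts at stalled RNA polymerase. Rad23b, the partner of Xpc, did not pass (adjusted p = 0.305), and the Xpc to Rad23b ratio was 0.0640 to 0.0760 in serum-starved and 0.0372 to 0.0457 in control libraries.

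The damage checkpoint has 2 sensor kinases, Atm for broken ends and Atr for stalled forks, and each has an effector kinase. Atr had 2.64, 2.5 and 2.35 FPKM in serum-starved and 3.75, 2.9 and 3.09 FPKM in control libraries, 1.30-fold lower (adjusted p = 0.0443), a call that was lost in 8 of 14 alternatives. Its effector Chek1 (gene ID 140583) had 1.74, 2.04 and 2.27 FPKM in serum-starved and 8.77, 7.03 and 7.54 FPKM in control libraries, 3.86-fold lower (log2 difference -1.54 ± 0.11, SE, limma, Benjamini-Hochberg adjusted p = 8.42e-06). Atm had 2.86, 3.5 and 3.01 FPKM in serum-starved and 3.49, 3 and 2.92 FPKM in control libraries, and the groups overlapped. Its effector Chek2 had 1.89, 1.6 and 1.84 FPKM in serum-starved and 3.8, 3.04 and 3.85 FPKM in control libraries, 2.01-fold lower with no overlap. In both arms the effector was thus lower against its sensor: the Chek1 to Atr ratio was 0.659 to 0.966 in serum-starved and 2.34 to 2.44 in control libraries, and the Chek2 to Atm ratio 0.457 to 0.661 in serum-starved and 1.01 to 1.32 in control libraries. Of 16 further checkpoint genes, 8 fell, 1 rose and 7 did not pass. Among the falls were H2afx, the histone variant marked at breaks, 4.22-fold lower and Clspn, the adaptor that presents Chek1 to Atr, 39.8-fold lower. The fold of Clspn is inexact, at 0.02, 0.11 and 0.12 FPKM in serum-starved libraries. Atrip, the partner of Atr, did not pass (adjusted p = 0.58).

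Further genes of these pathways and of lesion bypass and direct reversal, 113 with a row, gave 41 lower, 19 higher and 47 that did not pass among 107 tested. The shares were 38.3% lower and 17.8% higher, beside 29.4% and 31.7% of all tested genes. In the list of translesion synthesis and direct reversal 6 of 14 fell (42.9%) and 3 rose (21.4%). Pcna, the sliding clamp, was 3.20-fold and Rad18, which ubiquitinates it, 2.85-fold lower. Markers of dividing cells moved with the falling members: all 16 proliferation markers fell under the fit as described, by 2.41-fold to 137-fold (Rrm2), and their summed level was 99.62 to 105.8 FPKM in serum-starved and 690.5 to 908.2 FPKM in control libraries. Of 11 E2F factors and partners 9 fell (81.8%) and 2 did not pass, with Mybl2 79.4-fold and E2f1 7.84-fold lower. The fold of Mybl2 is inexact, at 0.13, 0.14 and 0.2 FPKM in serum-starved libraries. Of 12 quiescence-linked genes 6 rose and 2 fell, with Gas1 and Ccng2 higher by 2.58 and 1.49 on the log2 scale, and of 13 p53 pathway genes 8 rose and 1 fell, with Tp53inp1 and Fas higher by 1.71 and 0.84. The control libraries also differed among themselves in the same genes. Control library 1 was the highest control for 12 of the 13 members that fell at least 2-fold and for 13 of 16 proliferation markers. Control library 2 was the lowest for 10 and 15 of them. Control library 1 was also the highest control for 4 of the 6 members that rose and for 6 of the 15 that did not pass. The share over all tested genes was not computed. The part of the share of dividing cells in the members' differences was not tested.

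Head-to-head neighbours, genes whose starts face away from each other within 1000 bases on GRCr8, allowed the members to be set beside genes that share their promoter region. Of the 43 members with a promoter in the table, 13 had such a neighbour in the deposited tables, and both genes were tested in 12 pairs. Fancd2, which fell 10.7-fold, starts 113 bases from Emc3, a subunit of a membrane protein insertase, which had 85.98, 89.98 and 90.51 FPKM in serum-starved and 84.83, 85.7 and 101.8 FPKM in control libraries and did not pass (adjusted p = 0.794). Rad51ap1, which fell, starts 383 bases from Ferry3, which rose 1.22-fold (adjusted p = 0.0261), and Brca1, which fell, starts 968 bases from Nbr1, an autophagy receptor gene, which rose 1.16-fold (adjusted p = 0.0132). Of the 6 pairs whose member fell, the neighbour fell in 2 (Desi1 beside Xrcc6 and Aimp2 beside Pms2) and not in 4. With so few pairs this lies near the 29.4% of all tested genes called lower.

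Xpc and its neighbour went in opposite directions. Lsm3, a subunit of RNA-processing rings, starts 101 bases away, inside the Xpc window printed above. It had 18.43, 15.5 and 17.87 FPKM in serum-starved and 32.48, 36.9 and 35.81 FPKM in control libraries, 2.03-fold lower (log2 difference -0.98 ± 0.08, SE, limma, Benjamini-Hochberg adjusted p = 2.76e-05), while Xpc was 1.78-fold higher. Atm, which did not pass, starts 556 bases from Npat, a regulator of histone genes, which rose 1.47-fold (adjusted p = 0.0042).

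**Figure D4:**
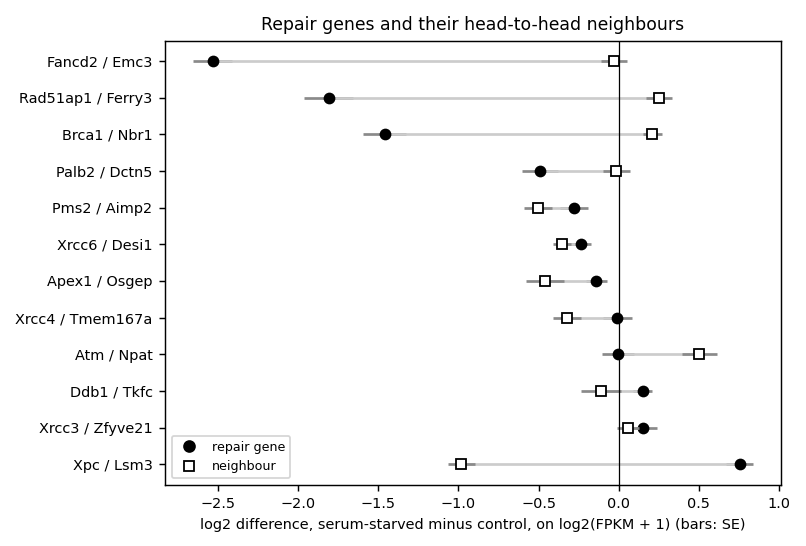
Log2 difference between serum-starved and control cells, on the log2(FPKM + 1) scale, for 12 repair genes (filled circles) and the head-to-head neighbour of each (open squares), with bars for the SE. The widest gaps are those of Fancd2 and Emc3 (-2.53 and -0.03), Rad51ap1 and Ferry3 (-1.81 and 0.25) and Xpc and Lsm3 (0.75 and -0.98).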

How the data were processed

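The authors deposited 1 table per library with a gene ID, a symbol and 1 value per gene, rounded to 2 decimals and treated here as FPKM because the values have decimals and the libraries' sums differ. TPM computed over a wider set of genes cannot be told apart from FPKM in these tables. The tools named by the submitters' processing notes, with no roles, are limma, DESeq2, StringTie, HISAT2 and bcl2fastq 2.0. The build named there is mm10, a mouse build, although the gene IDs are rat (15927, 93.2%, are in a RefSeq table of GRCr8). The annotation, the use of strand and the treatment of multi-mapped reads are not given in the sources used here, so no coordinates are given for the values, and GRCr8 served for promoter sequences and neighbouring genes. No counts or depths are known, so no counting interval is given.

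Groups came from the sample titles. At most 0.265% of values were equal between any pair of libraries, among genes of at least 5 FPKM in both. Values were analysed as log2(FPKM + 1), which understates the change of low genes. Genes with at least 1 FPKM in at least 3 libraries (11493) were compared by limma (version 3.58.1, R 4.3.3) with treatment as the only term, a variance trend on mean level, 4 residual degrees of freedom and Benjamini-Hochberg adjustment over all of them. An adjusted p without another label comes from this test. With 3 libraries against 3 an exact permutation test cannot give a two-sided p below 0.1. Folds are ratios of mean deposited values. Joins and plots used matplotlib 3.10.9, numpy 2.4.6, pandas 2.3.3 and Python 3.11.15.

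The members and all lists were chosen with earlier results of these data known. Values in every library are given for the called members with the 4 largest differences of a pathway, those against its majority, its most abundant member and up to 2 that did not pass. Other lists name up to 2 called genes and complex partners. Values of Brca1, Exo1, Rad54b, Neil3, Ddb2, Prkdc and Nhej1, and the genes said to be named after their values were seen, stand outside that rule, as do neighbours and overlapping genes. Alternatives were other pseudocounts, filters, scalings and library weights, the replicate block, and leaving out each library with the tested genes held fixed.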

Additional observations from a re-analysis of the deposited data

How the results depend on the processing

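Of the called members, 21 of the 28 lower and 5 of the 6 higher kept their call under every alternative that tested them. Without each library in turn, 24 to 26 members were lower and 5 to 8 higher, with end joining genes 0 to 1 lower and 1 to 2 higher and base excision genes 2 to 4 lower. With every library scaled to an equal total, 13 members were higher, namely 2 recombination, 1 Fanconi anaemia, 2 end joining, 1 base excision and 7 nucleotide excision genes. In that setting 0 end joining genes and 1 base excision gene were lower. The pathway medians were then -0.86 (Fanconi anaemia), 0.27 (end joining), -0.27 (mismatch), -0.059 (base excision) and 0.35 (nucleotide excision). Library weights gave 10 higher members, with 2 end joining genes and 1 base excision gene among them, and quantile normalization gave 1 higher base excision gene. At a filter of 5 FPKM, which tested fewer members, 14 were lower and 3 higher: 2 recombination genes, 2 Fanconi anaemia genes and 1 checkpoint kinase were lower and 1 nucleotide excision gene was higher. Members with differences near 0 changed sign without passing. Under scaling to an equal total these were Xrcc4 (0.17), Xrcc5 (0.18), Apex1 (0.048), Xrcc1 (0.10) and Atm (0.16). With quantile normalization Xrcc5 had 0.022, and with library weights Atm had 0.0030. Over the fits that left out a library, values ran between -0.0673 and 0.049 (Xrcc4), -0.0526 and 0.022 (Xrcc5), -0.14 and 0.0064 (Xrcc1) and -0.0698 and 0.055 (Atm). The cause was not tested. Whether the replicate numbers pair the samples is not known. Same-numbered libraries deviated from their group means with correlations of 0.0367, -0.162 and 0.101, and differently numbered ones with -0.164 to 0.164. With 3 libraries per group mean these correlations cannot settle it. With the replicate block, 27 members were lower and 5 higher, Atr and Ddb2 being lost. Values near or under 1 FPKM, where 8 tested members stood in serum-starved cells, limit how exactly a fold can be read. The same holds for Rmi2, Brip1, Ube2t, Clspn and Mybl2.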
